A study of Mus musculus with 9 samples.

Results

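The genes described are 9 known targets of Foxo1 in lymphocytes: Klf2, Il7r, Rag1, Rag2, Sesn1, Sesn3, Ccng2, Gadd45a and Txnip. They are known from other lymphocyte stages, were listed with earlier results of these data known, and were read by gene symbol from tables of 23700 entries, where each symbol occurred 1 time. The RNA came from germinal center B cells of mouse spleen, in 9 libraries, 3 from each of 3 groups. All donor B cells carried the B1-8hi antigen receptor knock-in, specific for the hapten NP, and ERT2cre, a Cre recombinase that acts only after tamoxifen, and each of these 2 knock-ins was heterozygous. Wild-type cells were Foxo1(+/+) and CD45.1/1, the other donor cells were Foxo1(f/f) and labelled CD45.1/2, and both were placed together, in equal parts, into C57BL/6 hosts. The hosts were immunized with NP-CGG in alum on day 0, dosed with tamoxifen from day 7 to day 9 and killed for sorting on day 12. Wild-type germinal center cells (NP+ GL7+ CD38-) were split into a light zone gate (LZ, CD86 high and CXCR4 low) and a dark zone gate (DZ, CD86 low and CXCR4 high). The Foxo1(f/f) cells, here called Foxo1-deficient, had no zone gate, so genotype and gate change together in each comparison with a zone and cannot be told apart. The written gate for Foxo1(f/f) cells is CD45.2-negative, which does not match CD45.1/2. Ages are not given in the sources used here, and nothing says that replicates were separate animals, so p-values measure only the spread between these samples.

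Foxo1 is a forkhead transcription factor that PI3K and Akt signalling drives out of the nucleus. In resting lymphocytes it is nuclear and is known to activate genes for trafficking (Klf2), for cytokine survival signals (Il7r), for recombination of antigen receptor genes (Rag1 and Rag2) and for quiescence and stress resistance (Sesn1, Sesn3, Ccng2, Gadd45a and Txnip). In germinal center B cells Foxo1 is known to be needed for the dark zone state. The comparisons below ask how the levels of targets known from other stages differ between these groups.

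Forkhead factors bind short AT-rich sequences. The 250 bases before the transcription start are shown for Txnip, Klf2 and Sesn1. In Txnip and Klf2 every Foxo1-deficient library lay above every wild-type library, and in Sesn1 every DZ library lay below every LZ library. The sequences are RefSeq's on GRCm38.p6, read 5′ to 3′ along the gene, and capitals mark matches on either strand to 8 words, which are GTAAACA with its variant GTAAATA, then GCAAACA with GCAAATA, then ATAAACA with ATAAATA, and finally ACAAACA with ACAAATA. RefSeq's table gave 10 start sites for the 9 members, 2 of them for Sesn1. The window of the first Sesn1 start site held none of the 8 words and is not shown. The same holds for Sesn3, whose Foxo1-deficient libraries all lay above DZ but not above LZ.
Txnip, chr3:96557707-96557956 (+ strand): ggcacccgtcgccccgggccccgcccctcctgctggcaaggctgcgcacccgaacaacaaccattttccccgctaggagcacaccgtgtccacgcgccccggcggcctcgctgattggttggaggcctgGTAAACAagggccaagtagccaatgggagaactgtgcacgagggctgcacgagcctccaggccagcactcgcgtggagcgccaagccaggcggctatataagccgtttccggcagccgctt
Klf2, chr8:72318812-72319061 (+ strand): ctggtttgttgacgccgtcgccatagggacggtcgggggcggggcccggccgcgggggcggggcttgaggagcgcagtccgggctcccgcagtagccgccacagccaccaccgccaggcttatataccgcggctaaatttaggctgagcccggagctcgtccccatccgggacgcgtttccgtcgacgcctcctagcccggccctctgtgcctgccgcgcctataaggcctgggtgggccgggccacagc
Sesn1, second start site, chr10:41887189-41887438 (+ strand): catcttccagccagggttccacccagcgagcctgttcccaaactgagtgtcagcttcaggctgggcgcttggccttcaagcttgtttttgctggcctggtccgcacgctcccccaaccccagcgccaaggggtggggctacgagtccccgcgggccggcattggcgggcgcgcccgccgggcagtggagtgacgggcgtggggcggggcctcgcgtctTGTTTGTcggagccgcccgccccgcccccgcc
Txnip held GTAAACA itself, from 121 to 115 bases before the start, as the only one of the 10 windows, against 3.17% of 32851 windows of the same length. Any of the 8 words was found in 3 of the 10 windows, against 24.9% of all windows. The other matches were ACAAACA on the reverse strand of the second Sesn1 window, 32 to 26 bases before the start, and ATAAACA in Rag1, 191 to 185 bases before it. These matches describe letters and do not show binding, and no match says only that these words are not in this window.

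Foxo1 itself was 14.8, 18.7 and 22.1 FPKM (fragment counts divided by transcript length and by library size) in LZ and 24.5, 19.5 and 19.1 in DZ. In the Foxo1-deficient libraries it was 3.01, 1.79 and 0.81 FPKM, below every wild-type library. The completeness of the deletion was not tested. Neither Foxo3 (0 to 2.52 FPKM) nor Foxo4 (0.60 to 3.65 FPKM), which share its DNA-binding domain, passed the test in any comparison. Germinal center markers were present in every library, with a summed level of 1130 to 1786 FPKM over 9 genes. The 9 neutrophil markers summed to 79.7 to 133 FPKM in the Foxo1-deficient libraries against 3.19 to 5.82 in LZ and 1.92 to 4.04 in DZ, and the 7 erythroid and platelet markers to 166 to 544 against 21.9 to 44.4 and 12.9 to 21.7. The 11 macrophage, monocyte and dendritic cell markers summed to 203 to 334 against 116 to 117 and 48.6 to 79.7. Of this sum Ctss, which B cells also express, had a mean of 113 FPKM in Foxo1-deficient cells, 112 in LZ and 64.1 in DZ, while Lyz2 was 51.6 to 127 in the Foxo1-deficient libraries and at most 0.17 in the wild-type ones. In LZ 8 neutrophil markers were at 0 in every library, and in Foxo1-deficient cells 2 were, Elane and Mpo. Of the macrophage list, 6 markers (Csf1r, Tyrobp, Fcer1g, Itgax, C1qa and C1qb) were at 0 in every LZ library and 4 (Csf1r, Itgam, Tyrobp and C1qa) in every DZ library, against 1, C1qb, in the Foxo1-deficient libraries, where 8 to 10 reached 1 FPKM. The platelet markers Pf4 and Ppbp were at 0 in all 9 libraries. In bulk RNA, fewer cells of a type and less RNA per cell cannot be told apart.

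**Figure D1:**
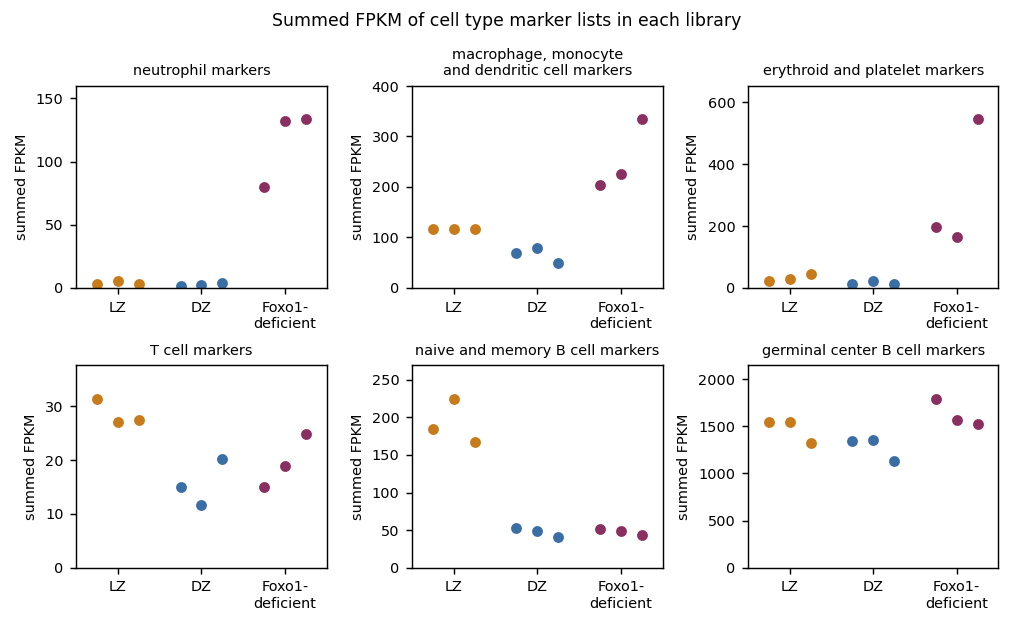
Summed FPKM (y axis) of 6 lists of cell type markers in each library, 1 point per library, by group (x axis). The neutrophil, macrophage and erythroid sums of the 3 Foxo1-deficient libraries lie above those of all 6 wild-type libraries, and the naive and memory B cell sum is highest in LZ (168 to 224).

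No member passed the test in any comparison. Of the 9, 6 had at least 1 FPKM in at least 3 libraries and entered the fit, and Il7r, Rag1 and Rag2 did not. Changes below are differences between group means of log2(FPKM + 1), so that those of low genes are understated, with 95% intervals and adjusted p-values from limma over 10004 genes. Against LZ 0 of the 6 were called (1.56% of all tested genes were), against DZ 0 (2.85%), between the zones 0 (1.94%) and against the mean of the zones 0 (2.06%). Before adjustment, p was under 0.05 for 1 member against LZ, 2 against DZ, 1 between the zones and 2 against the mean of the zones, among 1343, 1629, 1542 and 1468 of all genes. Against both zones at once, 0.540% of tested genes were called higher and 0.170% lower, and no member. No fitted member was called under any of 19 alternative settings, of which Klf2 entered 18, since a filter of 5 FPKM removed it, and Il7r, Rag1 and Rag2 entered only the fit without a filter. The lowest adjusted p over all of them was 0.0559 (Klf2 against DZ with no intensity trend).

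Of the 6 fitted members, 5 had changes above 0 in Foxo1-deficient cells against LZ and 1, Sesn1, below 0, with a median of 0.40 against -0.02 for all tested genes. Against DZ 5 were above 0 and Gadd45a was below, with a median of 0.42 against 0.12 for all tested genes, although Gadd45a became 0.08 without DZ replicate 1 and Ccng2, at 0.21, became -0.0033 without Foxo1-deficient replicate 1. These 2 comparisons share the same 3 Foxo1-deficient libraries. The interval of the change lay wholly above a fall of 1 on the log2 scale for 5 of the 6 against LZ (all but Sesn1) and for 5 of the 6 against DZ (all but Gadd45a). For Klf2 against DZ, with an interval of 0.64 to 2.28, the low level limits what this says. From 0.24, 0.68 and 1.61 FPKM in DZ, even complete loss would be a fall of less than 1 on this scale. Foxo1 fell by 2.82 and 3.01 in the same fits (adjusted p = 0.00113 and 0.000542).

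**Figure D2:**
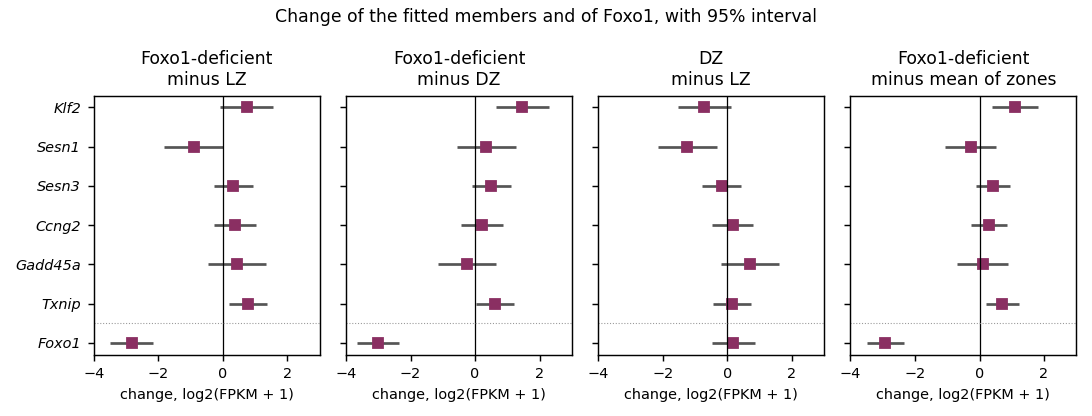
Change of the 6 fitted members and of Foxo1 (x axis, log2 difference of FPKM + 1) in 4 comparisons, with squares for the estimate and bars for its 95% interval. Foxo1 is at -2.82, -3.01 and -2.92 in the 3 comparisons of Foxo1-deficient cells, where the members lie between -0.90 and 1.46.

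Klf2, a zinc finger factor that keeps lymphocytes quiescent and promotes their exit from tissues, was lowest in DZ and highest in Foxo1-deficient cells. The gene lies on chromosome 8 from 74842961 to 74845553 (mm9, as are all gene positions here). Its FPKM was 2.12, 2.44 and 1.26 in LZ, 0.24, 0.68 and 1.61 in DZ, and 3.93, 5.50 and 2.57 in the Foxo1-deficient libraries. Every Foxo1-deficient library thus lay above every wild-type library, an order seen in 4.67% of tested genes and, among the 6 fitted members, in Klf2 and Txnip. The reverse order, seen in 2.02% of tested genes, was found in no member. LZ and DZ overlapped. The change was 1.46 against DZ (0.64 to 2.28, adjusted p = 0.0651), 0.75 against LZ (-0.08 to 1.57, adjusted p = 0.418) and 1.10 against the mean of the zones (0.39 to 1.82, adjusted p = 0.123). With a pseudocount of 0.1 the Klf2 change against DZ was 2.34 (adjusted p = 0.0986). The Cufflinks intervals imply about 4.0 to 52.0 fragments per library. The interval of replicate 3 of Foxo1-deficient cells (1.49 to 3.57) overlapped those of all LZ libraries and of DZ replicate 3 (0.88 to 2.31). That of Foxo1-deficient replicate 1 (2.69 to 5.09) overlapped those of LZ replicates 1 and 2 (up to 2.94 and 3.33).

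The 8 naive and memory B cell markers, a cell type with high Klf2, summed to 43.7 to 51.2 FPKM in Foxo1-deficient cells, 168 to 224 in LZ and 40.7 to 53.4 in DZ, with Ccr6 at 0 in all Foxo1-deficient and DZ libraries. The neutrophil, macrophage and erythroid sums given above, like Klf2, were highest in the Foxo1-deficient libraries. Among these, Klf2 was lowest in replicate 3, where the 3 sums were 133, 334 and 544, and highest in replicate 2, where they were 132, 225 and 166. The part of these cells in the Klf2 level was not tested. Of 7 homing genes known as targets of Foxo1 or Klf2, all tested, Cxcr4, the chemokine receptor of the dark zone, was lower in Foxo1-deficient cells than in DZ and no other passed in either comparison with a zone.

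Il7r, the receptor chain for IL-7 that keeps naive T cells and pre-B cells alive, was close to absent. It lies on chromosome 15 from 9435914 to 9459631. Its FPKM was 0.15, 0.04 and 0 in LZ, 0.04, 0 and 0.02 in DZ, and 0.04, 0.02 and 0.78 in Foxo1-deficient cells. A single library, replicate 3 of the Foxo1-deficient cells, stood above the rest, with a Cufflinks interval of 0.39 to 1.12. The mean difference from the 6 wild-type libraries was 0.237 FPKM (exact two-sided permutation test, p = 0.381, adjusted over 3 genes p = 0.571, smallest p possible 0.0238), and without that library it was -0.0119. The T cell markers Cd3e, Cd3g and Cd4 were at 0 in all 9 libraries, the 9 T cell markers summed to 24.8 FPKM in that library, all of it from 1 gene, and all 7 NK and innate lymphoid markers were at 0 in the Foxo1-deficient libraries. That library also had the highest macrophage sum (334 against 203 and 225 in the other 2 Foxo1-deficient libraries) and erythroid sum (544 against 198 and 166), and the lowest relative depth of the 9 (0.827). Their part in the Il7r value was not tested.

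Rag1 and Rag2 encode the recombinase that joins antigen receptor gene segments in developing lymphocytes. They are neighbours on chromosome 2, Rag2 from 101464905 to 101472685 and Rag1 from 101478411 to 101489689. Rag1 was 0.31 FPKM in DZ replicate 1 and listed at 0 in the other 8 libraries. Rag2 was 0.25 FPKM in the same DZ library, 0.12 and 0.30 in replicates 1 and 2 of Foxo1-deficient cells, and listed at 0 in the other 6. The Cufflinks interval of Rag1 in that DZ library, 0.16 to 0.45, implies about 17.0 fragments, and those of Rag2 imply at most 8.9. The exact two-sided permutation test between Foxo1-deficient and wild-type libraries gave p = 1 for Rag1 and p = 0.310 for Rag2 (adjusted over 3 genes 1 and 0.571). With Rag1 above 0 in only 1 library, the test could not give a small p for it and decides nothing there. The 7 pre-B cell markers, which include Il7r, Rag1 and Rag2, summed to 0.811 to 4.17 FPKM in Foxo1-deficient cells, 0.263 to 0.592 in LZ and 0.574 to 0.973 in DZ. Cd93 led this sum, with a mean of 1.95 FPKM in Foxo1-deficient cells, and Dntt, Igll1 and Vpreb1 were at 0 in all 9 libraries. The entry B230118H07Rik, which overlaps Rag2, was listed at 0 throughout.

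Sesn1 and Sesn3 encode sestrins, stress-induced proteins that restrain mTORC1. Sesn1, on chromosome 10 from 41530380 to 41628242, was 10.0, 7.59 and 6.23 FPKM in LZ, 4.70, 2.47 and 1.60 in DZ, and 6.31, 1.67 and 4.41 in Foxo1-deficient cells. Every DZ library lay below every LZ library, an order found in 17.1% of tested genes and in no other fitted member. No member had every DZ library above every LZ library (5.16% of tested genes). The Foxo1-deficient libraries spread over both groups. The mean in LZ was 2.72-fold that in DZ. From LZ to DZ the change was -1.25 (-2.16 to -0.33, adjusted p = 0.176), in Foxo1-deficient cells against LZ it was -0.90 (-1.81 to 0.01, adjusted p = 0.376), and against DZ 0.35 (-0.57 to 1.26, adjusted p = 0.732). Sesn1 has 2 groups of start sites in the files, and the values are of the whole gene.

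Sesn3, on chromosome 9 from 14080745 to 14130578, was higher than Sesn1 in every library. Its FPKM was 13.7, 26.1 and 26.0 in LZ, 13.5, 21.3 and 21.8 in DZ, and 28.1, 22.8 and 29.3 in Foxo1-deficient cells. LZ overlapped both other groups, with the lowest values in replicate 1 of LZ and of DZ. Every Foxo1-deficient library lay above every DZ library, an order whose share among all tested genes was not counted. The change was 0.32 against LZ (-0.28 to 0.92, adjusted p = 0.659) and 0.50 against DZ (-0.10 to 1.10, adjusted p = 0.409).

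Ccng2 and Gadd45a act on the cell cycle, Ccng2 as an atypical cyclin of arrested cells and Gadd45a as a stress sensor that interacts with PCNA and inhibits Cdk1. Ccng2, on chromosome 5 from 93696599 to 93705257, was 20.3, 14.6 and 8.81 FPKM in LZ, 18.0, 15.0 and 14.0 in DZ, and 24.7, 15.9 and 15.2 in Foxo1-deficient cells. All 3 groups overlapped, and replicate 1 was the highest of its group in each. Its change was 0.37 against LZ (-0.27 to 1.01, adjusted p = 0.630), 0.21 against DZ (-0.43 to 0.85, adjusted p = 0.775) and 0.16 from LZ to DZ (-0.48 to 0.80, adjusted p = 0.865).

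Gadd45a, on chromosome 6 from 66985090 to 66987401, was 2.47, 4.42 and 7.20 FPKM in LZ, 12.8, 6.75 and 5.10 in DZ, and 5.31, 9.91 and 4.59 in Foxo1-deficient cells. The groups overlapped, and the spread within a group was 2.16-fold to 2.91-fold from the lowest to the highest library. Its change was 0.69 from LZ to DZ (-0.21 to 1.60, adjusted p = 0.477), 0.44 against LZ (-0.46 to 1.34, adjusted p = 0.692) and -0.25 against DZ (-1.16 to 0.65, adjusted p = 0.806). The overlapping entry E230016M11Rik reached at most 1.27 FPKM.

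Txnip, the thioredoxin-interacting protein, an arrestin-like protein that binds thioredoxin and limits glucose uptake, had the highest level of the members in Foxo1-deficient cells. It lies on chromosome 3 from 96361880 to 96365780. Its FPKM was 23.0, 19.8 and 11.7 in LZ, 24.2, 22.0 and 14.0 in DZ, and 28.7, 30.2 and 33.7 in Foxo1-deficient cells. As with Klf2, every Foxo1-deficient library lay above every wild-type library, without overlap. Of the Cufflinks intervals, only those of DZ replicate 1 (21.8 to 26.5) and Foxo1-deficient replicate 1 (26.0 to 31.5) touched across that divide. The mean was 1.70-fold that of LZ and 1.54-fold that of DZ. The change was 0.78 against LZ (0.19 to 1.37, adjusted p = 0.218), 0.63 against DZ (0.04 to 1.22, adjusted p = 0.277) and 0.70 against the mean of the zones (0.19 to 1.21, adjusted p = 0.169).

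Txnip is the member whose upstream window holds the GTAAACA shown above. The lowest adjusted p of Txnip over the alternatives was 0.104 against LZ, 0.156 against DZ and 0.0575 against the mean of the zones. The entry Gm15441, which overlaps Txnip, was at most 0.96 FPKM, reached in DZ. The neutrophil, macrophage and erythroid sums were, like Txnip, higher in every Foxo1-deficient library than in every wild-type library. From LZ to DZ the mean of Txnip went from 18.2 to 20.1 FPKM. In replicate 3 of Foxo1-deficient cells Txnip (33.7) and the neutrophil (133), macrophage (334) and erythroid (544) sums were all at their highest. Their part in the Txnip level was not tested.

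**Figure D3:**
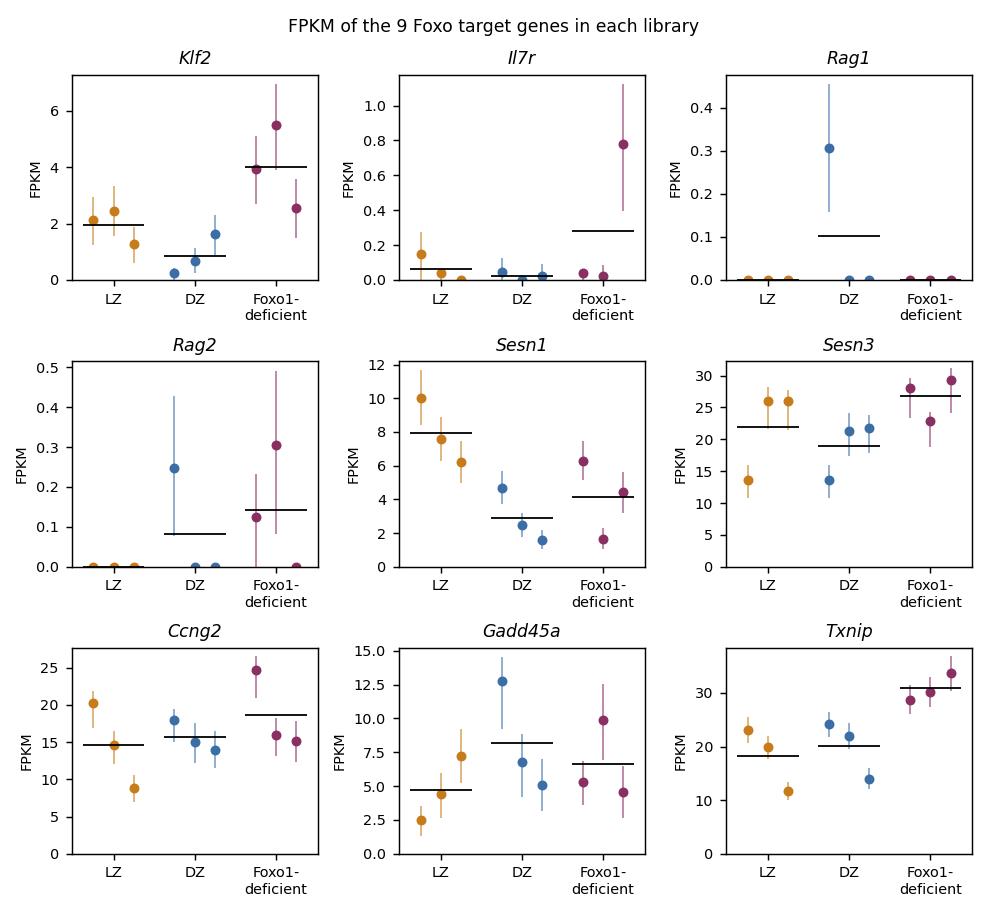
FPKM (y axis, linear from 0, a scale of its own for each gene) of the 9 members in each library, by group (x axis), with points for libraries, vertical bars for the Cufflinks interval and a horizontal line for the group mean. Klf2 and Txnip are above all wild-type libraries in the 3 Foxo1-deficient libraries, Sesn1 is lower in DZ (1.60 to 4.70) than in LZ (6.23 to 10.0), and Il7r, Rag1 and Rag2 stay under 1.

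FPKM is scaled to transcript length, so levels can be set side by side between genes. In DZ and in Foxo1-deficient cells the order of mean FPKM was Txnip, Sesn3, Ccng2, Gadd45a, Sesn1 and Klf2, and in LZ it was Sesn3, Txnip, Ccng2, Sesn1, Gadd45a and Klf2. The libraries of Txnip, Sesn3 and Ccng2, as neighbours in these orders, overlapped in all 3 groups. Ccng2 did not overlap Gadd45a in DZ or in Foxo1-deficient cells. Nor did Gadd45a overlap Sesn1 in DZ, or Klf2 overlap Gadd45a in LZ. The spread between replicates (pooled SD of log2(FPKM + 1)) was 0.57 for Sesn1 and 0.58 for Gadd45a, above that of 80.0% and 80.8% of tested genes. For Klf2 it was 0.44, and for Sesn3, Ccng2 and Txnip 0.38, 0.40 and 0.37, beside a median of 0.37 over all tested genes.

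Over the 9 libraries, the genes whose log2(FPKM + 1) values were most like those of each fitted member were found by Pearson's r among 10004 genes, as a description over libraries that share groups. Txnip was most like Kidins220 (r = 0.988) and Mrps36 (0.950), Klf2 most like BC027231 (0.936) and Mmachc (0.911), and Sesn1 most like Cd3eap (0.959) and Limd1 (0.956). Sesn3 was nearest to Rc3h2 (0.934) and Tmem143 (0.934), Ccng2 to Zswim4 (0.952) and Mettl14 (0.918), and Gadd45a to Rasa3 (0.910) and Aldh9a1 (0.908). No member was among the 2 nearest genes of another.

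Other genes of the Foxo pathway were read from 11 lists of 94 distinct genes, Foxo1 included, of which 69 entered the fit. Against LZ 1 was higher and 3 lower (of all tested genes 0.690% and 0.870%), and against DZ 2 were higher and 4 lower (2.10% and 0.750%). Between the zones 3 were higher in DZ and 2 lower (0.560% and 1.38%), and against the mean of the zones 1 was higher and 3 lower (1.26% and 0.800%). These are 5.80%, 8.70%, 7.25% and 5.80% of the 69. The lists were drawn up with results on several of these genes known, so the shares are not independent evidence. The median change of the 69 was 0.06 against LZ and 0.18 against DZ.

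Genes of B cell development and antibody diversification moved in both directions. Bach2, a repressor that holds back plasma cell fate, ranged from 16.2 to 23.5 FPKM in LZ, from 28.7 to 35.7 in DZ and from 5.09 to 11.3 in the Foxo1-deficient libraries, and fell by 1.84 against DZ (adjusted p = 0.00427), a call kept without each of the 9 libraries. Its fall of 1.21 against LZ (adjusted p = 0.0497) was kept only without Foxo1-deficient replicate 3, with an adjusted p of up to 0.146 without 1 of the other libraries. Vpreb3, a B lineage protein that associates with newly made immunoglobulin chains, rose by 1.15 against LZ (adjusted p = 0.0122), from 68.5 ± 6.14 to 156 ± 37.9 FPKM (SD, n = 3 each, limma), and this was lost without LZ replicate 1, LZ replicate 3 or Foxo1-deficient replicate 3 (adjusted p up to 0.0556). Ebf1, a B lineage transcription factor, rose by 0.93 against DZ (adjusted p = 0.0162), lost without DZ replicate 2 or Foxo1-deficient replicate 1 or 2 (up to 0.0720). Of 6 tested genes of this list, 1 rose and 1 fell against each zone.

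In the remaining lists, calls were single genes. Of 6 tested partners of IL-7 receptor signalling, Jak3, the kinase bound to the common cytokine receptor chain, had 17.0 ± 4.33 FPKM in LZ, 5.85 ± 1.82 in DZ and 13.2 to 14.6 in the Foxo1-deficient libraries. It fell by 1.40 in DZ relative to LZ (adjusted p = 0.0210), and its level in Foxo1-deficient cells was above that of DZ by 1.18 (adjusted p = 0.0331). Leaving out LZ replicate 1 or 2, or DZ replicate 1 or 3, ended the first call (adjusted p up to 0.0829), and the second was lost without LZ replicate 1, DZ replicate 1 or 3 or any Foxo1-deficient library (up to 0.112). Of 9 tested antioxidant genes, Sepp1, which encodes selenoprotein P, had 6.35 ± 2.03 FPKM in LZ and 23.5 ± 4.66 in DZ, a rise of 1.75 (adjusted p = 0.0218) that ended when LZ or DZ replicate 1 or 3 was left out (up to 0.0885). Relative to DZ it fell by 1.40 in Foxo1-deficient cells (adjusted p = 0.0448). This fall held only when LZ replicate 2 or Foxo1-deficient replicate 3 was left out (adjusted p otherwise up to 0.158).

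Of 10 tested genes of cell cycle restraint and D cyclins, Ccnd2 passed, a D-type cyclin known to be repressed by Foxo factors. It fell by 2.54 in Foxo1-deficient cells relative to LZ (adjusted p = 0.00591) and by 3.50 in DZ relative to LZ (adjusted p = 0.000878). Both calls were kept without each library. Trp53inp1, an autophagy and stress protein in the lists of apoptosis genes (5 tested) and p53 targets (8 tested), rose by 0.93 in DZ relative to LZ (adjusted p = 0.0433), kept only without LZ replicate 2 or Foxo1-deficient replicate 3 (up to 0.149). Cxcr4 fell by 1.66 against DZ (adjusted p = 0.00143), kept without each library, and its rise of 1.10 in DZ relative to LZ (adjusted p = 0.0190) ended when replicate 1 or 2 of either zone was left out (up to 0.0854). CXCR4 was used for the sort. Of the alternatives that left out no library, all 10 kept the calls of Bach2, Cxcr4 and Ebf1 against DZ and of Ccnd2 between the zones. The fall of Ccnd2 against LZ ended with a pseudocount of 0.1 (adjusted p = 0.0524) and without a filter (0.0510), and the rise of Vpreb3 against LZ ended without a filter (0.0843). Between the zones, Cxcr4, Sepp1 and Jak3 each lost their call in 2 of the 10 (adjusted p up to 0.104, 0.154 and 0.104) and Trp53inp1 in 4 (up to 0.0909). Against DZ, Jak3 lost it in 2 (up to 0.115) and Sepp1 in 6 (up to 0.201), and Bach2 lost it in 7 against LZ (up to 0.216). None of 5 tested genes of feedback on insulin, PI3K and mTOR signalling, 7 of autophagy and protein turnover or 11 paralogs of the members passed in any comparison.

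**Figure D4:**
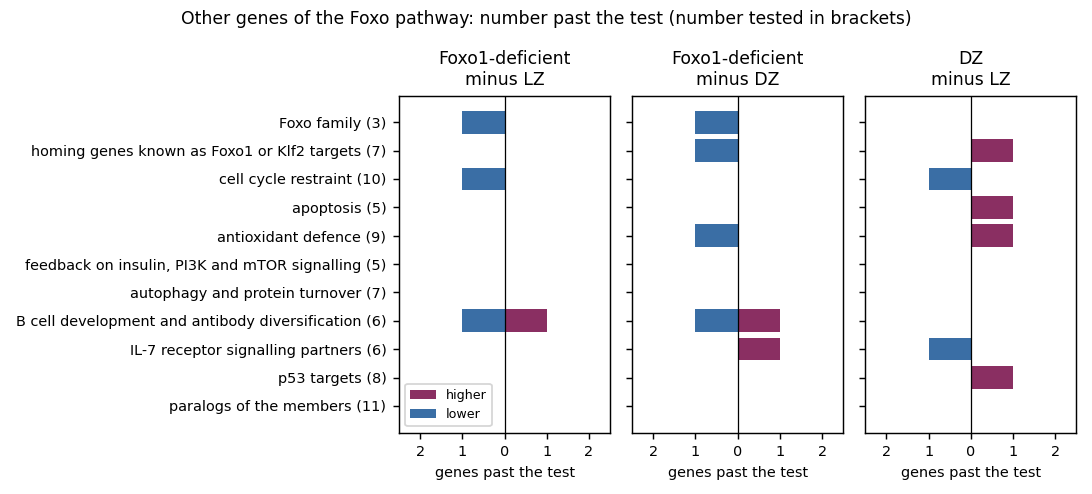
Number of genes past the test in 11 lists of the Foxo pathway (x axis, higher to the right and lower to the left of 0) for 3 comparisons, with the number of tested genes in brackets. At most 1 gene per direction passed in any list and comparison.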

How the data were processed

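RNA was measured in 3 LZ, 3 DZ and 3 Foxo1-deficient libraries, made with the NEBNext Ultra kit from about 1e4 sorted cells each, per the labels' protocols. The build mm9 and the programs Cufflinks 2.1.1 and TopHat2 2.0.8 are listed, without their roles, per the submitters' processing notes. The authors deposited 1 Cufflinks table of FPKM values with interval bounds per library, per the file headers; the total used for scaling and any use of strand are not given in the sources used here. Starts in the files count from 0 and were raised by 1.

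Of 23700 entries, 716 with a repeated symbol and 7 with a failed or too deep estimate were left out, leaving 22977. limma 3.58.1 (R 4.3.3) with an intensity trend was fitted to log2(FPKM + 1) of the 10004 genes that reached 1 FPKM in 3 or more libraries. All 9 libraries entered 1 fit on group means, with Benjamini-Hochberg adjustment within each comparison and a threshold of 0.05. Il7r, Rag1 and Rag2 were tested by exact permutation (SciPy 1.17.1). The code was tested on simulated data. Total counts are not given; the Cufflinks intervals, taken as 2 SD of a Poisson count, gave an estimate of fragments and a relative depth of 0.83 to 1.10. Replicates correlated at r of 0.868 to 0.942 across tested genes.

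The members and lists were chosen with earlier results of these data known. By rule, the genes named are the members, Foxo1, list genes past the test (up to 3 per list), the 2 genes most like each fitted member, and markers at 0. Outside it, and after their values were seen, Foxo3, Foxo4, Gadd45b, Klf6, Ccng1 and the markers Ctss, Lyz2 and Cd93 were named, as were entries overlapping a member. The lists were Foxo family, homing genes, cell cycle restraint, apoptosis, antioxidant defence, feedback on insulin, PI3K and mTOR signalling, autophagy and protein turnover, B cell development and antibody diversification, IL-7 receptor signalling partners, p53 targets and paralogs of the members. Alternatives changed the pseudocount, filter, scaling, weights, trend, block and libraries used.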

Additional observations from a re-analysis of the deposited data

How the results depend on the processing

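The count of fitted members called was 0 in all 4 comparisons under all 19 alternatives (18 for Klf2). The count of all genes called against LZ, 156, became 99 with a pseudocount of 0.1, 59 without a filter, 96 with a filter of 5 FPKM, 58 when the fit held only the 2 groups compared and 41 to 141 without 1 library. Against DZ, 285 became 166 with no filter and 119 to 245 without 1 library. Between the zones, 194 became 68 without a filter, 122 in a fit of those 2 groups, 79 with no intensity trend, 316 with voom weights on implied fragments and 73 to 215 without 1 library. Against the mean of the zones, 206 became 136 with no filter, 312 with quantile normalization, 314 with median centring, 113 in a fit of the compared groups and 56 to 168 without 1 library. The cause was not tested. Without 1 library the mean FPKM difference of Il7r ran from -0.0119 to 0.366, of Rag1 from -0.0611 to 0 and of Rag2 from 0.0209 to 0.173.

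Median centring moved the all-gene median from 0.12 to -0.06 against DZ and from -0.15 to 0.04 between the zones, and the percentage of calls that were higher from 73.7% to 44.6% and from 28.9% to 56.8%. Against the mean of the zones it went from 61.2% to 43.6%. Quantile normalization gave 60.8% against DZ and 42.8% between the zones. With the replicate number as a block, 137, 221, 161 and 191 genes were called against LZ, against DZ, between the zones and against the mean, and 0 members. The block ended the calls of Bach2 against LZ (adjusted p = 0.0759), Sepp1 against DZ (0.0735) and Trp53inp1 between the zones (0.0738). Between groups, deviations of libraries of the same number correlated at r of -0.067 to 0.075, and those of different numbers at -0.112 to 0.05. Values this small cannot show whether the numbers pair the libraries. Not every library correlated best with its own number. Depth limits Klf2, Il7r, Rag1 and Rag2, at or under about 52.0 implied fragments in each library.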

Other observations

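The paralogs of the members, picked out here after their values were seen, held genes with higher levels than the member itself. Gadd45b, an inducible relative of Gadd45a, ran from 25.3 to 39.8 FPKM in LZ, while DZ had 39.2 to 49.8 and the Foxo1-deficient libraries 41.2 to 57.9, above Gadd45a in every library. Klf6, a widely expressed relative of Klf2, was above Klf2 in every library. It was at 7.58 to 10.4 FPKM in LZ, 8.58 to 9.90 for DZ and 10.1 to 13.2 in the Foxo1-deficient libraries. Ccng1, a p53 target related to Ccng2, was at 20.2 to 25.9 FPKM in LZ, 12.9 to 16.6 for DZ and 14.8 to 22.2 in Foxo1-deficient cells, a range that overlaps that of Ccng2. None of these 3 genes passed the limma test in any comparison.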
